A study of Mus musculus with 4 samples.

Results

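Nascent myofibre spots are the capture spots of the day 7 section in which RNA of embryonic and neonatal muscle proteins took the largest share. Among spots with at least 2000 UMIs (unique molecular identifiers, each tagging 1 captured RNA molecule), every spot was scored by the summed UMIs of Myh3, Myh8, Myl4 and Tnnt2 divided by its total UMIs, on the scale of CPM (counts per 1000000 UMIs). Spots at or above the 90th percentile of that score, 870 CPM, were taken. They numbered 295 of the 2948 spots that passed the depth minimum, of 3032 spots at day 7 and of 10835 spots in the series, and the remaining 2653 spots served as the comparison. The score was computed from the same counts that are described here, so every difference between these spots and the rest is a description and none is a test.

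The series comprises 4 tissue sections, cut from the tibial muscle of C57BL/6 mice of the Nse-Bmp4 genotype, 6 to 8 weeks old, with 1 section from uninjured muscle (day 0) and 1 each from muscle taken 1, 3 and 7 days after cardiotoxin injury. In these mice the rat neuron-specific enolase promoter drives a Bmp4 transgene, all 4 sections carry it, and the injured muscle goes on to form cartilage and bone. The labels say that 3 tibial muscles were mixed per group, and whether a section holds tissue of 1 or of several muscles could not be worked out. No section had a replicate, so differences between days and differences between animals cannot be told apart.

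Skeletal muscle repairs itself from satellite cells, which divide, switch on the myogenic factors Myod1 and Myog, fuse through the membrane proteins Mymk and Mymx, and build new fibres. New fibres first use developmental versions of the contractile proteins, among them the embryonic and perinatal myosin heavy chains encoded by Myh3 and Myh8, the embryonic atrial light chain Myl4 and the cardiac troponin T gene Tnnt2, and replace them later with the adult fast or slow versions. Macrophages clear dead fibres and accompany this process. A capture spot covers several cells, so a spot with new fibre RNA can hold old fibre, immune cells and matrix cells as well, and more cells of a kind cannot be told apart from more RNA per cell.

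Myh3 and Myh8 lie in a run of muscle myosin genes on chromosome 11. In the GRCm38.p6 annotation Myh3 spans chr11:67078273-67102291 and Myh8 chr11:67277124-67308634, both on the forward strand, with the adult genes Myh2, Myh1 and Myh4 between them from position 67171027 to 67260447. Myog lies on chromosome 1 at chr1:134290004-134292548, and Tnni1 and Tnnt2 are near each other on the same chromosome, at chr1:135783033-135810989 and chr1:135836315-135852268. Myh3 and Myh8 were high in the chosen spots by the rule, and Myog, which was not in the score, was high there too. The 250 bases before the start sites of Myog, Myh3 and Myh8 are shown because these 3 genes track the order of the differentiation programme. They are RefSeq sequence on the forward strand, from chr1:134289754-134290003, chr11:67078050-67078299 and chr11:67276874-67277123. The Myh3 window ends inside the annotated gene span, because the start site used for it is not the first annotated base. Capitals mark the E-box letters CANNTG, which read the same on both strands and are the core bound by the myogenic factors.
Myog: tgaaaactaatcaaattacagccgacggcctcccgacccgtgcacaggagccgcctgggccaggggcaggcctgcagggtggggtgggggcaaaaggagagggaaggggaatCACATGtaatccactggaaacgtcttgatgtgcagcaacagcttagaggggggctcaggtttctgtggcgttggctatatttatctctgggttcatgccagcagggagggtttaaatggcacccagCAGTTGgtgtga
Myh3: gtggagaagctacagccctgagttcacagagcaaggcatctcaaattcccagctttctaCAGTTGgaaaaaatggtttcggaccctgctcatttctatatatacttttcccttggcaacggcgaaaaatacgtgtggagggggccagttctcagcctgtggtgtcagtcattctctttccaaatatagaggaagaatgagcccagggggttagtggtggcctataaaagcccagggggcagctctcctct
Myh8: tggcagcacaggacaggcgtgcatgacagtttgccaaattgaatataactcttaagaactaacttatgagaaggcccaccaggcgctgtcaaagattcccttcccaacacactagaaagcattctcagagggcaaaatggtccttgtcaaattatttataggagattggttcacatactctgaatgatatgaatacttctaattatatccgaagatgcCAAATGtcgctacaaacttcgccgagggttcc

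The Myog window held 2 matches, the Myh3 and Myh8 windows 1 each, the Tnnt2 window 4 and the Myl4 window 0. Of 32851 promoter windows of the same length, 66.2% held at least 1 match, with a median of 1, and 12.2% held at least 3. The letters TATAAA stood on a strand of 12.4% of the windows, including those of Myh3 and Myh8 with 1 match each. These matches describe letters and not sites in use.

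The 295 spots carried 75.01% of all marker UMIs of the day 7 spots. Myh3 was at 315 CPM of the summed UMIs in them and at 20.8 CPM in the other spots. Myh8 was at 768 and 50.1 CPM, Myl4 at 1485 and 113 CPM, and Tnnt2 at 254 and 22.6 CPM. Myl4 gave 52.6% of the marker UMIs and Myh8 27.2%, so the choice rested mostly on these genes. All 4 markers had at least 1 UMI in 218 of the 295 spots and in 117 of the 2653 others. The score ran from 870 to 12690 CPM with a median of 1408, against a median of 129 in the others. It had no gap at the threshold, since the 5 lowest members lay at 870 to 890 CPM and the 5 highest other spots at 856 to 870.

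When a marker was left out of the score and 295 spots were chosen by the other 3, the omitted gene was still high in them. Myh3 was 14.1-fold as high in spots chosen without it (95% interval 13.0 to 15.4), Myh8 12.8-fold (12.1 to 13.4), Myl4 11.3-fold (10.9 to 11.7) and Tnnt2 10.2-fold (9.41 to 11.1). From 243 to 285 of the 295 spots stayed in the set, the fewest without Myl4. These and all later intervals cover counting error only and leave out differences between animals and between places in a section.

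**Figure D1:**
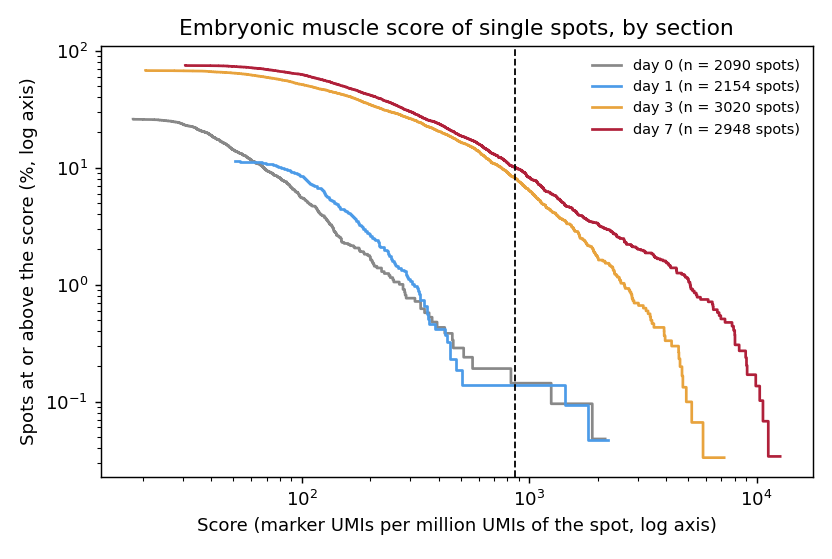
The horizontal axis is the score of a spot on a log scale and the vertical axis the percentage of a section's spots at or above it, also on a log scale, with 1 line per section and a dashed line at the day 7 threshold of 870 CPM. The day 3 and day 7 lines lie together at low scores and part at high scores, where the day 7 section reaches 12690 CPM and the day 3 section 7198, and 3 spots each at days 0 and 1 reach the threshold.

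The high-scoring spots were deeper than the rest of their section. They held a median of 23517 UMIs and 5168 genes per spot, against 11725 UMIs and 3110 genes in the others. Mitochondrial genes took a median of 7.86% of UMIs in them and 12.7% in the others. Over the series, sections had 16777832 to 56113066 UMIs and a median of 6322 to 21029 UMIs per spot, day 1 being the shallowest. The 4 sections share 1341 spot barcodes, as slides printed with 1 barcode set do. The part of depth in the results was not tested, but values against deeper comparison spots are given below.

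Of 14393 genes with at least 20 UMIs, 824 (5.73%) were at least 2-fold higher in the nascent myofibre spots and 631 (4.38%) at least 2-fold lower. The median gene had a log2 ratio of 0.11. Scaling by edgeR's TMM factors moved that median to -0.04 and the split to 633 higher and 853 lower, DESeq2 size factors gave 633 and 851, and a total without muscle and mitochondrial genes gave 654 and 804. The counts of gene groups below are on the plain CPM scale and should be read against those percentages.

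Genes of immature muscle that were not in the score were high in the same spots. Of 23 such genes, 15 were at least 2-fold higher, 2 at least 2-fold lower (Ankrd2 and Myh7b, the latter with 3 UMIs in the nascent myofibre spots) and 6 within 2-fold, and the median log2 ratio was 1.52. The list took 10426 CPM in the nascent myofibre spots, 3929 CPM in the others and 4662 CPM in the 282 spots richest in adult fast fibre genes. Of the 295 spots, 207 (70.2%) were also in the top decile of the section by this list, which holds 10.0% of all spots. The list is not silent in mature muscle, since it took 8535 CPM in the top decile of the uninjured day 0 section and 9301 CPM in its other spots, where Actc1 alone stood at 5364 and 6146 CPM. Its total therefore does not by itself mark new fibre. The label rests on the markers, which chose the spots, and on single genes such as Chrng and Mymk, whose levels varied among the spots as given below. Myog was high in the set as a whole. In the members of lowest score it was near its level in spots rich in macrophage or cartilage genes, as given below.

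The acetylcholine receptor subunits separated by developmental use. Chrng, the fetal gamma subunit, was at 48.1 CPM in the nascent myofibre spots and 3.57 CPM in the others, a ratio of 13.5 (10.9 to 16.7). The delta subunit Chrnd was 5.64-fold, the alpha subunit Chrna1 2.93-fold and the beta subunit Chrnb1 2.70-fold as high. Chrne, the adult epsilon subunit that replaces gamma at mature junctions, was 1.49-fold as high (1.29 to 1.73). Among genes of denervation, Gadd45a, a stress gene, was 2.54-fold as high (2.35 to 2.74), and the ubiquitin ligases of atrophy Trim63 and Fbxo32 were at ratios of 1.01 and 0.763.

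Structural genes used by young fibres differed in size of ratio. Actc1, the actin isoform that precedes the adult skeletal Acta1, was at 1985 CPM against 694 CPM, but stood at 1589 CPM in adult fast fibre spots (ratio 1.25, 1.21 to 1.29) and higher still at day 0. Acta1 was at 29839 against 31746 CPM. Actc1 ran from 0 to 8103 CPM over the nascent myofibre spots with a median of 1237, and from 0 to 8375 CPM over the others with a median of 472, so single spots overlapped fully. Sln, which restrains the calcium pump of the sarcoplasmic reticulum, was at 1554 against 273 CPM, with spot medians of 1145 and 109 CPM. Casq2, the cardiac and slow-fibre calsequestrin, was at 226 against 29.1 CPM, a ratio of 7.79 (7.201 to 8.43). Casq1, its fast-fibre relative, was at 3179 against 2309 CPM, a ratio of 1.38. The M-band gene Myom3 was 3.75-fold and the muscle LIM protein gene Csrp3 4.27-fold as high. Ankrd1 was 5.17-fold as high at 103 against 19.97 CPM, and its relative Ankrd2 was lower, at 5.19 against 29.6 CPM.

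The imprinted growth genes Igf2, H19 and Dlk1, active in fetal tissue and in regenerating muscle, were also high. Igf2 was at 505 CPM against 95.3 CPM and had a median of 387 CPM over single nascent myofibre spots and 0 over the others. H19 was at 3258 against 1141 CPM, with spot medians of 2682 and 713 CPM. Dlk1 was at 156 against 26.1 CPM, a ratio of 5.98 (5.48 to 6.53). Mstn, the inhibitor of muscle growth, was lower, at 18.6 CPM against 46.7 CPM and 82.5 CPM in adult fast fibre spots. Igf1 was level between nascent myofibre spots and the others, at 159 and 156 CPM.

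Myog had the largest ratio of the myogenic transcription factors compared. This factor, which drives terminal differentiation, was at 229 CPM against 39.2 CPM, a ratio of 5.85 (5.44 to 6.29). It ran from 0 to 2204 CPM over the nascent myofibre spots with a median of 83.7, and from 0 to 1286 CPM over the others with a median of 0. Myod1 was at 95.3 against 48.6 CPM and Myf5 at 13.3 against 4.94 CPM. Pax7, the marker of satellite cells, had 45 UMIs in all nascent myofibre spots together, at 5.99 against 2.31 CPM, a ratio of 2.59 (1.76 to 3.79). Over the 13 genes of the satellite cell and myogenic list that had enough UMIs, 4 of them (Myog, Myf5, Pax7 and Megf10) were at least 2-fold higher, none was 2-fold lower, and the median log2 ratio was 0.69.

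In pooled counts, fusion was represented by its dedicated genes. Mymk (myomaker) was at 145 CPM against 14.5 CPM, a ratio of 10.0 (8.99 to 11.1), and Mymx (myomixer) at 34.6 against 3.48 CPM, a ratio of 9.95 (7.98 to 12.5). The Mymx ratio was carried by the spots of higher score. In the lowest tertile of the nascent myofibre spots by score, Mymx was at 4.22 CPM (1.82 to 8.32). This was level with the other spots, and the ninth decile of all spots by score held 5.82 CPM. Mymk was at 64.4 CPM in the same tertile, above the 44.4 CPM of that decile. Cav3, of the fibre membrane, was 2.21-fold as high in pooled counts. The other 6 fusion genes compared, which also serve adhesion or membrane repair in other cells, stayed within 2-fold, and the median over the 9 was 0.33.

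To take depth out of the share of spots, each spot was thinned to 2000 UMIs. A UMI of Mymk was then seen in 18.6% of nascent myofibre spots, 2.83% of the others and 3.77% of the 292 cartilage-rich spots. For Myog the shares were 27.1%, 6.52% and 10.96%. For Sln they were 84.1%, 28.5% and 28.8%. For Chrng they were 7.12%, 0.452% and 0.685%. The nascent myofibre spots exceeded the cartilage-rich spots for all 4 of these genes. Cartilage-rich spots are not free of muscle, with 68268 CPM of adult fast fibre genes. Their share may hold local muscle and free RNA, which cannot be told apart here, and the background itself was not measured.

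**Figure D2:**
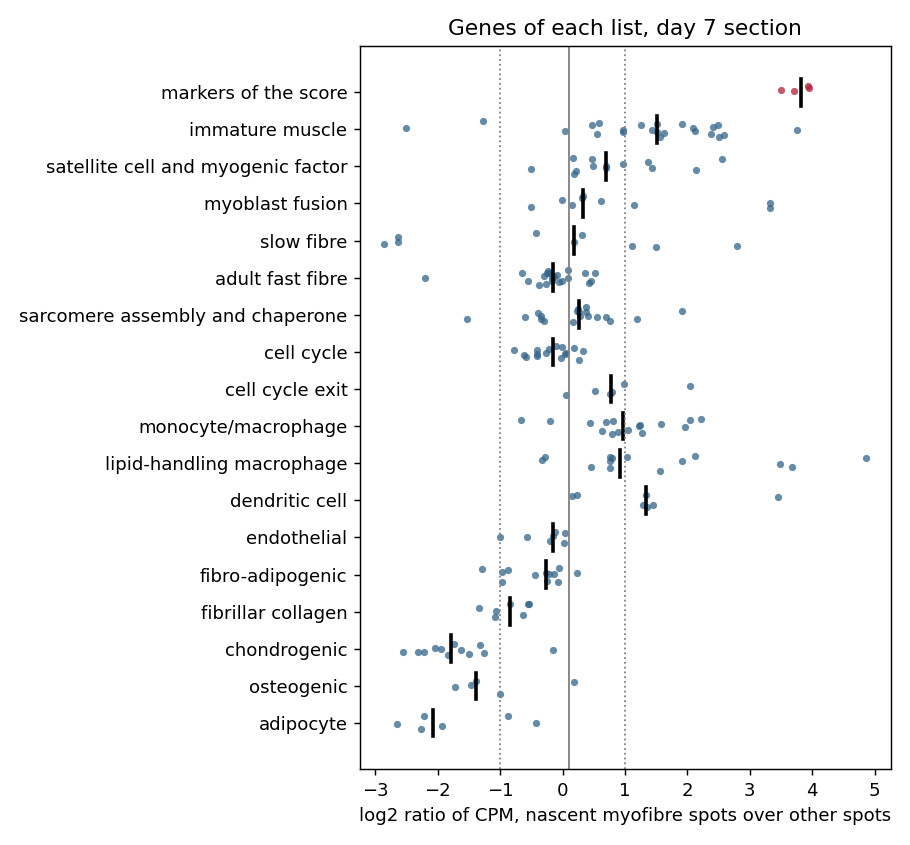
Each point is 1 gene of a list with at least 20 UMIs, placed by its log2 ratio of CPM in the 295 nascent myofibre spots over the 2653 other spots, with a black bar at the list's median, dotted lines at 2-fold and a grey line at the median of all genes (0.11). Immature muscle genes lie to the right with a median of 1.52, adult fast fibre genes cluster near the grey line with a median of -0.16, and chondrogenic genes lie to the left with a median of -1.79.

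Adult fast fibre RNA was abundant in these spots too. The 22 genes of the list took 174565 CPM in the nascent myofibre spots and 185044 CPM in the others, with a median log2 ratio of -0.16, and 21 of the 22 lay within 2-fold. Myh4, the myosin of the fastest fibres, was at 17811 against 21326 CPM, and Myh1 at 2118 against 2215 CPM. The exception was Myh2, the myosin of fast oxidative fibres, at 93.3 against 429 CPM, a ratio of 0.218 (0.202 to 0.235). Single nascent myofibre spots ranged from 27860 to 318182 CPM of the list, with a median of 183814, inside the range of 15044 to 385407 CPM of the others. The adult fast fibre spots, chosen for this list, stood at 302331 CPM, and only 13 of the 295 nascent myofibre spots were in the section's top decile for it.

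The slow fibre list split by isoform. Tnni1 was at 542 CPM against 78.0 CPM (6.95-fold, 6.62 to 7.30), Tnnt1 at 423 against 150 CPM (2.82-fold) and Tnnc1 at 252 against 117 CPM (2.16-fold). These slow troponin genes are also used by developing fibres. The slow myosin gene Myh7 was at 21.3 against 133 CPM, with a ratio of 0.161 (0.136 to 0.188), and the slow light chains were as low, Myl2 at 12.6 against 91.8 CPM and Myl3 at 28.0 against 174 CPM. The list median of 0.18 covers 3 genes past 2-fold in each direction. Against adult fast fibre spots, Myh7 had a ratio of 1.28, and Tnni1 was 15.3-fold as high (12.8 to 18.4).

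Genes that assemble and fasten the contractile apparatus differed less. Of 19 compared genes of sarcomere assembly and chaperones, Myom3 and Obsl1 were at least 2-fold higher and Nebl, with 8 UMIs in the nascent myofibre spots, was lower, with a median of 0.26. All 16 genes of the costamere, the basement membrane and the myotendinous junction were within 2-fold, with a median of 0.39. The highest of them was Itga7, the laminin receptor of muscle, at 144 against 73.1 CPM. Of the 11 genes of excitation coupling, Casq2 and the ryanodine receptor gene Ryr3 (12 UMIs) were past 2-fold.

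Cell cycle genes lay near the pooled level of the other spots, which averages unlike spots. The list took 99.6 CPM in adult fast fibre spots, 701 CPM in cartilage-rich spots and 405 CPM in spots outside the set richest in macrophage genes. Its spot median was 211 CPM in the nascent myofibre spots and 167 CPM in the others. The 16 cell cycle genes took 248 CPM in the nascent myofibre spots and 272 CPM in the others, all 16 lay within 2-fold, and Mki67 was at 14.2 against 16.5 CPM. Cdkn1a, the cell cycle inhibitor induced as myoblasts stop dividing, was at 238 against 57.9 CPM, a ratio of 4.10 (3.85 to 4.38). It had a median of 168 CPM over single nascent myofibre spots and 0 over the others. The other 5 genes of cell cycle exit were within 2-fold and the median over the 6 was 0.77.

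Macrophage RNA was high in the same spots. The 16 monocyte/macrophage genes took 5136 CPM in the nascent myofibre spots and 1920 CPM in the others, with 8 genes at least 2-fold higher, none 2-fold lower and a median of 0.96. Over single spots the list ran from 0 to 28626 CPM with a median of 2832, against a range of 0 to 14113 and a median of 1433 in the others. Lyz2 was at 2400 against 581 CPM, Ctss at 283 against 73.0 CPM and Tyrobp at 325 against 70.1 CPM. Mrc1, a receptor of resident and repair macrophages, went the other way, at 59.1 against 94.2 CPM. The part of macrophage RNA in the differences between spots was not tested.

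Apart from the markers, the 2 genes with the largest ratios among those above 50 CPM were genes of lipid-handling macrophages. Gpnmb, a lysosomal membrane glycoprotein, was at 312 CPM against 24.4 CPM, a ratio of 12.8 (11.8 to 13.8). Spp1, which encodes osteopontin, was at 383 against 34.3 CPM, a ratio of 11.2 (10.43 to 11.96). Of 14 genes of lipid-handling macrophages, 7 were past 2-fold and the median was 0.91. Mmp12, the macrophage elastase, was at 41.8 against 1.43 CPM, Trem2 at 138 against 31.6 CPM and Apoe at 4620 against 1572 CPM. Cd36 and Lpl, which muscle and fat also express, were at ratios of 0.819 and 0.795. Itgax, an integrin of dendritic cells and some macrophages, was at 41.4 against 3.77 CPM.

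These levels differed in make-up from macrophage-rich spots elsewhere in the section. The 211 macrophage-rich spots outside the set were chosen by the macrophage list and held a similar amount of it, 5542 CPM against 5136 CPM. In pooled counts Gpnmb was 5.96-fold as high in the nascent myofibre spots as in them (5.10 to 6.99), Spp1 6.36-fold (5.51 to 7.38), Itgax 5.71-fold (3.76 to 9.04) and Mmp12 34.6-fold (13.4 to 128), and none of these 4 genes was in the list that chose the comparison spots. These pooled ratios were carried by the spots of highest score. In the lowest tertile of the nascent myofibre spots by score, Gpnmb was at 57.5 CPM and Spp1 at 37.99 CPM, against 52.3 and 60.2 CPM in the macrophage-rich spots. Over single spots the median of Gpnmb was 64.2 CPM in the nascent myofibre spots and 0 in the macrophage-rich spots, and that of Spp1 45.6 CPM and 0. The macrophage-rich spots were shallower, with a median of 12642 UMIs, and the part of depth in these medians was not tested. Within the list that chose them, Lyz2 was 1.52-fold as high in pooled counts but had a lower spot median, 1048 against 1293 CPM, whereas C1qa was at 0.459 and Mrc1 at 0.204 of their level. Hp, which encodes haptoglobin, was at 30.2 CPM in nascent myofibre spots and 451 CPM in the macrophage-rich spots.

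Antigen presentation genes carried the dendritic list, with 5 of 7 genes at least 2-fold higher and a median of 1.34. H2-Ab1 was at 536 against 212 CPM and Cd74 at 1017 against 397 CPM, beside 546 and 980 CPM in macrophage-rich spots. T and NK cell genes took 23.8 CPM against 11.7 CPM. They took 34.8 CPM in macrophage-rich spots and 26.1 CPM in the ninth decile of all spots by score. The B cell list was lower, at 36.2 CPM against 58.1 CPM (ratio 0.623, 0.547 to 0.708), and 6 of the 295 spots were in the section's top decile for it. Igha, the constant region of immunoglobulin A made by plasma cells and no member of that list, was at 60.0 CPM against 12.3 CPM.

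**Figure D3:**
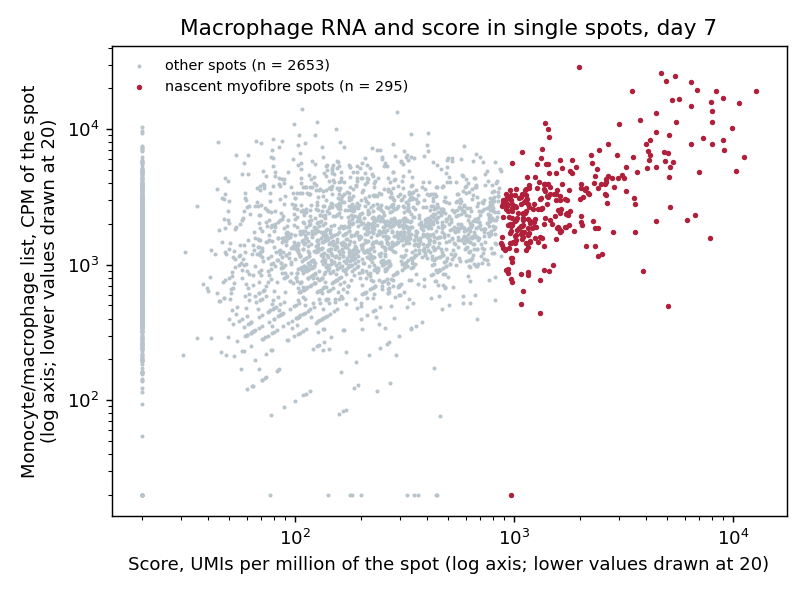
Each point is a spot of the day 7 section, with its score on the horizontal axis and the CPM of the monocyte/macrophage list on the vertical axis, both on log scales. Values under 20 are drawn at 20, which holds for the score of 744 other spots and for the macrophage level of 18 other spots and 1 nascent myofibre spot. Both sets spread widely, and the nascent myofibre spots reach up to 28626 CPM of the list where the other spots reach 14113.

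The spots varied strongly among themselves. Split by score into tertiles of 99, 98 and 98 spots, the highest tertile reached from 2008 to 12690 CPM. Between the lowest and the highest tertile, Myog went from 74.9 to 392 CPM, Mymk from 64.4 to 226 CPM and Mymx from 4.22 to 65.2 CPM. Actc1 went from 1042 to 2620 CPM. Genes of the imprinted group were flatter, H19 going from 2443 to 3608 CPM and Dlk1 from 111 to 178 CPM. Myh4 went the other way, from 21872 to 14003 CPM. Median depth also went up over the tertiles, from 17850 to 21603.5 and 34523 UMIs.

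Several macrophage genes differed widely between the tertiles. Gpnmb was at 57.5, 94.5 and 608 CPM in the lowest, middle and highest tertile, Spp1 at 37.99, 113 and 768 CPM, and Mmp12 at 3.17, 6.07 and 88.8 CPM. The macrophage list took 2399, 3584 and 7784 CPM. Spearman's rho with the score over the 295 spots was 0.57 for the macrophage list, 0.59 for the lipid-handling list, 0.59 for the immature muscle list and -0.30 for the adult fast fibre list. These spots share 1 library and differ in depth, so the coefficients are descriptions. The lowest tertile already held the macrophage list above the 1920 CPM of the other spots pooled. At 2399 CPM it was not above the ninth decile of all spots by score, which held 2511 CPM.

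Myh8 and Myh3 kept a similar balance across the spots. Of the UMIs of both genes, Myh8 gave 70.9% in the nascent myofibre spots (Clopper-Pearson interval 69.9 to 71.9) and 70.7% in the others (68.8 to 72.5). In the 181 nascent myofibre spots with at least 10 such UMIs, the share of Myh8 ran from 0 to 100% with a median of 71.4% and quartiles of 62.5 and 80%. Of the UMIs of 6 muscle myosin heavy chains in the nascent myofibre spots, Myh4 gave 84.3%, Myh1 10.0%, Myh8 3.64%, Myh3 1.49%, Myh2 0.442% and Myh7 0.101%.

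Cartilage and bone genes were low in these spots against the other spots pooled, which include the cartilage-rich spots. The chondrogenic list took 686 CPM in the nascent myofibre spots, 2314 CPM in the others and 338 CPM in adult fast fibre spots. For the osteogenic list these levels were 125, 378 and 50.9 CPM. Both lists were thus above their level in adult fast fibre spots. Of 12 chondrogenic genes, 11 were at least 2-fold lower, with a median of -1.79, and only Sox6, which muscle also uses, was within 2-fold. Col2a1, the cartilage collagen, was at 185 against 714 CPM and at 4061 CPM in cartilage-rich spots. It was not uniformly low, since single nascent myofibre spots reached 9611 CPM with a median of 92.0. The osteogenic list had 4 of 5 compared genes 2-fold lower, with Ibsp at 75.2 against 248 CPM. Of 7 fibrillar collagen genes and partners 3 were 2-fold lower and none was above the others, with Col1a1 at 5506 against 11722 CPM and the tenascin gene Tnc at 99.2 against 252 CPM. The difference was not seen in every summary, since the spot medians of the list were 10795 and 11375.5 CPM, the 2 lowest score deciles held Col1a1 at 5647 and 5194 CPM, and adult fast fibre spots held the list at 4577 CPM against 13253 CPM in the nascent myofibre spots. The adipocyte list had 4 of 6 genes 2-fold lower, with Adipoq at 2.80 against 17.6 CPM. Smpd3 (22.5 against 88.4 CPM) and the Wnt inhibitor gene Frzb (17.2 against 62.0 CPM), both used by cartilage, and Tnn (46.1 against 198 CPM) were among the lowest of the named genes.

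Stromal progenitor genes differed less. Of 12 fibro-adipogenic genes 11 were within 2-fold, with a median of -0.26, and Pi16 was lower at 76.8 against 188 CPM. The direction of the list depended on the summary, since its pooled level was 6996 against 8323 CPM, its spot median 5962 against 4860 CPM, and its level in adult fast fibre spots 2537 CPM. Postn, which encodes periostin, was at 1531 against 1311 CPM. The BMP pathway list took 362 against 474 CPM with a median of -0.41, and 230 CPM in adult fast fibre spots. Bmp4 itself had 38 UMIs in the nascent myofibre spots, at 5.06 against 10.44 CPM, and these counts do not separate the transgene from the mouse gene. Nog, a BMP antagonist, was at 3.59 against 12.3 CPM. The endothelial list had all 7 genes within 2-fold.

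**Figure D4:**
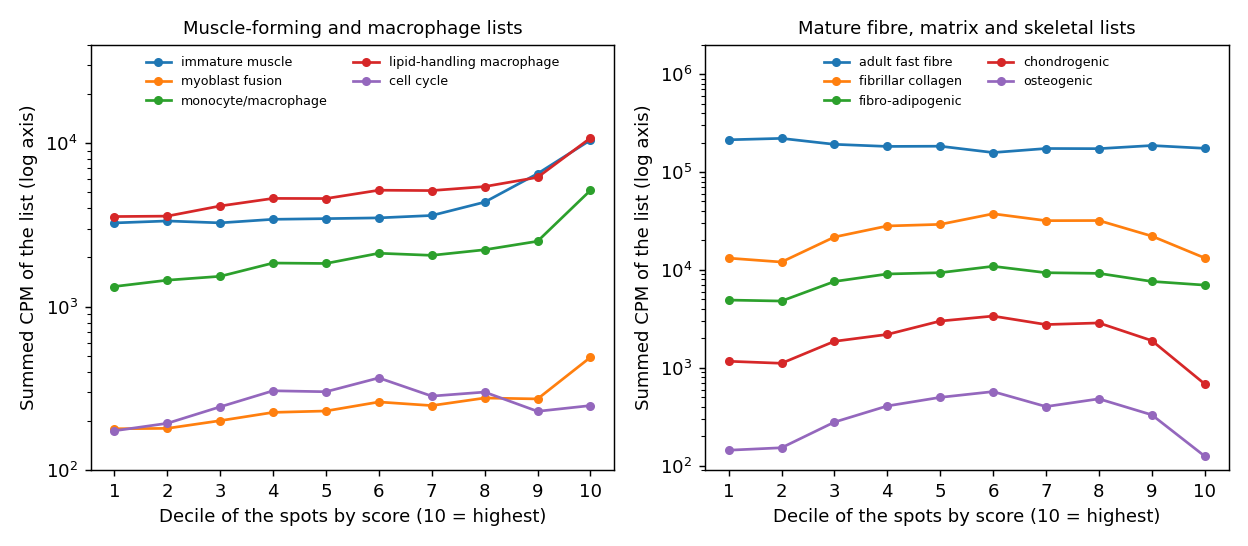
Spots of the day 7 section were split into deciles by score, and the summed CPM of each list is drawn for each decile on a log axis, with muscle-forming and macrophage lists on the left and mature fibre, matrix and skeletal lists on the right. Since 744 spots had a score of 0, the order within the lowest 2 deciles and part of the next is arbitrary. The immature muscle list goes from 3251 CPM in the lowest decile to 6503 and 10432 CPM in the 2 highest, and the chondrogenic list goes from 1167 CPM to a highest value of 3379 in the sixth and back to 685 in the last.

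The same threshold and the same rule were applied to the other sections. At or above 870 CPM lay 3 of 2090 spots at day 0 (0.144%, Clopper-Pearson interval 0.0296 to 0.419), 3 of 2154 at day 1 (0.139%, 0.0287 to 0.406) and 245 of 3020 at day 3 (8.11%, 7.16 to 9.14). At day 7 the rule itself fixed the share at 10.0%. The top decile of the day 3 section held 302 spots and began at 753 CPM.

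The make-up of those spots differed between the sections of days 3 and 7. Myh8 gave 6.16% of the UMIs of Myh3 and Myh8 in the top decile at day 3 (5.45 to 6.93) against 70.9% at day 7. Myh3 was at 459 CPM at day 3 and 315 CPM at day 7, while Myh8 was at 30.1 and 768 CPM. Myl4 was at 808 and 1485 CPM. Of the genes that did not choose the spots, Myog was at 611 and 229 CPM, Myod1 at 278 and 95.3 CPM, Mymk at 222 and 145 CPM, and Mymx at 150 and 34.6 CPM. Sln was at 37.5 and 1554 CPM, Igf2 at 66.2 and 505 CPM, H19 at 449 and 3258 CPM and Dlk1 at 0.931 and 156 CPM. Thus the early differentiation and fusion genes were higher in the day 3 spots, and the imprinted genes, Sln and the marker Myh8 in the day 7 spots. The other spots of day 7 were also above the day 3 top decile for Sln (273 CPM), Igf2 (95.3 CPM) and Dlk1 (26.1 CPM). The same held for H19 and the marker Myh8, at the levels of the other spots given earlier. For these genes the difference between the sections was therefore not confined to the high-scoring spots.

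Within the day 3 section, 590 of 14440 genes (4.09%) were at least 2-fold higher in the top decile and 397 (2.75%) 2-fold lower, with a median gene at a log2 ratio of 0.15. The immature muscle list had 14 of 23 genes past 2-fold and a median of 1.24. The adult fast fibre list had 14 of 22 genes 2-fold lower and a median of -1.06, where the day 7 median was -0.16, and Myh4 was at 2476 CPM in the top decile and 11314 CPM in the rest. The macrophage list had no gene past 2-fold and a median of 0.14 at day 3, where it took 12099 CPM in the top decile. Gpnmb was at 290 CPM in the top decile and 320 CPM in the rest, and Spp1 at 554 and 1044 CPM. Mmp12 was at 3.14 and 7.60 CPM. Whether these patterns differ between the days beyond the spread of animals could not be tested with 1 section per day.

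**Figure D5:**
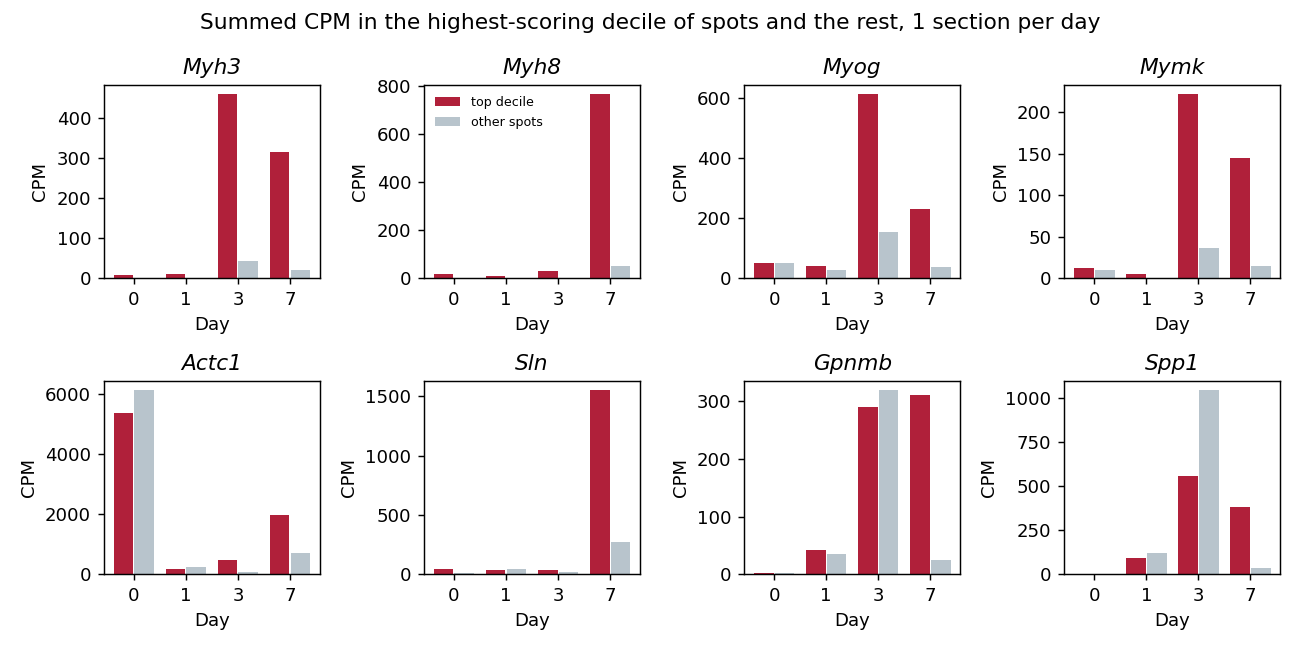
Bars give the CPM of 8 genes at days 0, 1, 3 and 7 in the top decile of each section's spots by score (red) and in its other spots (grey), with each axis starting at 0 and 1 section per day. At day 0 Actc1 stands at 5364 and 6146 CPM in the 2 sets, Myog and Mymk are highest in the red bars of day 3, Sln and Myh8 in those of day 7, and Gpnmb is level between the sets at day 3 and apart at day 7.

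In the day 0 section the score picked out little. The top decile at day 0 began at 68.0 CPM, 1547 of 2090 spots scored 0, and Myh3 had 44 UMIs in all 209 top spots. Actc1 was higher at day 0 than in the nascent myofibre spots of day 7, at 5364 CPM in the top decile of day 0. Myog was at 50.5 CPM there and Mymk at 13.2 CPM.

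The lists were also compared with other spots matched for depth or for muscle content. Against the 937 other spots with at least 14484 UMIs, whose median depth was 19144, the immature muscle median was 1.53, the macrophage median 0.90 and the adult fast fibre median -0.07. Against the 979 other spots whose share of adult fast fibre UMIs lay between the nascent myofibre spots' quartiles of 15.0 and 22.2%, the medians were 1.56, 1.18 and -0.22. In that comparison 1038 genes were 2-fold higher and 357 lower. Both comparisons were chosen after seeing the data.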

How the data were processed

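Spatial transcriptomes of tibial muscle came from 1 fresh frozen section per day. Whole-number UMI counts for each gene in each spot were deposited, which the authors made with Space Ranger and limited to spots over tissue. The file headers name version 1.2.0, the study's methods another one, and the submitters' processing notes the mouse build mm10. Positions, images and single-cell data were not used, and no doublet caller or deconvolution was run. Each table held 32285 features.

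Counts were summed over spots with at least 2000 UMIs and scaled to CPM, with exact Poisson and Clopper-Pearson based intervals at 95%. Genes needed 20 UMIs, and a gene under 3 UMIs in a group entered at 3. The 33 lists held 361 symbols, of which 360 were found. A symbol with 2 features was read from the one with more UMIs. Comparison spots were the top decile by the adult fast fibre, macrophage or chondrogenic list outside the members. Named genes were those of the lists plus, among the 3027 genes above 50 CPM in either set that were neither mitochondrial nor markers, the 12 largest and 12 smallest ratios. A few genes of the lists are not reported here by name. Members, lists and rules were chosen with earlier results of these data known. With 1 section per day no test was possible. The calculations were tested on simulated data.

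The 10 settings planned and 2 added after seeing the data were other percentiles, depth minimums, marker weights, scalings, equal spot weights, a minimum of 1 UMI, and deeper or muscle-matched comparison spots. Coordinates and promoters came from RefSeq GRCm38.p6. Scaling factors, and nothing else, came from DESeq2 1.42.0 and edgeR 4.0.16 under R 4.3.3. All other steps used pandas 2.3.3, SciPy 1.17.1 and NumPy 2.4.6 under Python 3.11.15, and figures matplotlib 3.10.9.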

Additional observations from a re-analysis of the deposited data

Results flagged for a closer look

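Several gene groups had median ratios on opposite sides in the high-scoring spots of days 3 and 7, each relative to the rest of its own section. With 1 section per day the difference between days was not tested. The fibrillar collagen list had a median log2 ratio of -0.84 at day 7 and 0.66 at day 3. The inflammatory macrophage list was at 0.60 at day 7 and -0.53 at day 3, and the T and NK cell list at 1.10 and -0.90, both resting on few UMIs at day 7 (48.9 and 23.8 CPM in the nascent myofibre spots). As a sum, the inflammatory macrophage list was level at day 7, at 48.9 against 46.9 CPM (ratio 1.04, 0.927 to 1.17), with 2 of 7 genes 2-fold higher and 1 lower.

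Of the named genes, Spp1 had a log2 ratio of 3.48 at day 7 and -0.91 at day 3, and Igha 2.29 and -4.16. The slow fibre genes went the other way, Myl2 with -2.86 at day 7 and 1.07 at day 3, Myl3 with -2.64 and 0.63, and Myh7 with -2.64 and 1.70. These ratios are against the other spots pooled. At day 7 the slow fibre list reached 44880 CPM in single other spots, with a spot median of 497 CPM. Against adult fast fibre spots Myh7 was not lower, as given above. Tnn was at -2.10 at day 7 and 0.56 at day 3. Igha rested on 5 UMIs in the day 3 top decile and 451 UMIs in the nascent myofibre spots of day 7.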

How the results depend on the processing

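No paired analysis was possible because each day has 1 section and the labels carry no replicate numbers. The directions of the 3 list medians held under all 12 settings, and so did those of at least 106 of the 107 genes past 2-fold that were followed. Fewer kept the 2-fold size, 87 against muscle-matched spots, 90 at the 80th percentile, 93 with equal spot weights, 96 against deep spots and 101 or more under the other settings. The immature muscle median of 1.52 moved to 1.43 with members above the 80th percentile, 1.37 with TMM and with DESeq2 factors, 1.39 with equal spot weights and with a total without muscle and mitochondrial genes, and 1.56 with muscle-matched spots. The adult fast fibre median of -0.16 moved to -0.29 at the 95th and -0.11 at the 80th percentile, -0.21 with equal marker weights, -0.31 with TMM and with DESeq2 factors, -0.28 without muscle in the total, -0.069 against deep and -0.22 against muscle-matched spots. The macrophage median of 0.96 moved to 1.14 and 0.78 at these percentiles and 1.18 against muscle-matched spots. Muscle-matched spots gave 357 lower genes in place of 631. Counting every gene with at least 1 UMI gave 5096 higher genes in place of 824. That count includes genes called higher by the floor alone. Counts under 3 entered at 3 and the sets differ in total, so 3 or fewer UMIs in each set give a log2 ratio of 2.19. Alas2 turned to 0.65 with equal spot weights and Col10a1 to 0.15 against muscle-matched spots. The cause of the other moves was not tested. Deep and muscle-matched spots were added after seeing the data. Depth limits genes such as Pax7, Ryr3 and Nebl, which have few UMIs.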
